A study of Mus musculus with 9 samples.

Results

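Activator protein 1 (AP-1) is a family of transcription factors that bind DNA as dimers of basic leucine zipper (bZIP) proteins. The 8 subunit genes described here were Fos, Fosb, Fosl1 and Fosl2 of the Fos family, Jun, Junb and Jund of the Jun family, and the related Atf3. On the mouse genome Fos lies on chromosome 12, Fosb on 7, Fosl1 on 19, Fosl2 on 5, Jun on 4, Junb and Jund on 8, and Atf3 on 1. They were taken by name, as all probe sets that the array annotation gave 1 of these symbols, and all 8 were measured, by 12 probe sets, among 18193 genes on the array. Gene expression was compared in yNSCs, native neural stem cells (NSCs) and cortical neurons of the mouse, with 3 arrays in each group, labelled A, B and C as biological replicates. The yNSCs were derived from cortical neurons that received a doxycycline-inducible wild-type YAP gene, and they grew with the mitogens EGF and bFGF in DMEM/F12 that also held N2 and heparin. The labels name no transgene for the NSCs, which grew in the same medium. The neurons were primary cortical cultures in Neurobasal with B27 and cytosine arabinoside (AraC), a drug that kills dividing cells, so cell type and medium cannot be told apart wherever neurons are compared.

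According to the study's methods, neurons came from late embryos or newborn pups, YAP and the doxycycline-dependent activator rtTA were delivered by lentivirus, and yNSCs were passaged as neurospheres without doxycycline after their induction. The passage of the cells on the arrays, and whether the arrayed neurons had received a virus, were not given in the sources used here. The mouse strain was likewise not given in them. YAP is a transcriptional coactivator held in check by the Hippo pathway.

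Fos proteins dimerize with Jun proteins, whereas Jun proteins can also pair with each other, and the dimers recognize the TPA response element, TGACTCA. Fos, Fosb, Fosl1, Jun, Junb and Atf3 are classically induced within minutes to hours by growth factors, neuronal activity or stress, through MAP kinases that act on SRF with its Elk partners, on CREB and on Jun itself. AP-1 and TEAD, the DNA-binding partner of YAP, are known to bind many of the same enhancers. In the brain, Fos and Jun family genes are best known as immediate early genes of active neurons, and Atf3 and Jun as genes induced by neuronal injury.

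The cell labels were checked against marker genes, with the unlogged levels of a list summed per array and the total given as log2. The highest genes of a list therefore dominate its sum. The 5 neuron markers (Tubb3, Rbfox3, Map2, Syn1 and Snap25) lay at 9.85 to 10.15 in yNSCs and 11.51 to 11.68 in NSCs, against 13.98 to 14.07 in neurons. Most of this sum in the stem cells came from Map2, which averaged 9.76 in yNSCs and 11.52 in NSCs. In yNSCs against NSCs 2 of the 5 were called higher, Snap25 (2.12) and Tubb3 (1.28), and 2 lower, Rbfox3 (-1.92) and Map2 (-1.76). The 3 markers of dividing cells lay at 11.49 to 11.65 in yNSCs and 12.0 to 12.6 in NSCs, against 7.55 to 7.93 in neurons. The 4 neural stem cell markers (Nes, Sox2, Prom1 and Fabp7) lay at 13.78 to 13.88 in yNSCs, 13.92 to 14.14 in NSCs and 13.68 to 13.82 in neurons. Most of this sum came from Fabp7, which averaged over 13 in each group and was not called against neurons. The other 3 were called higher than in neurons, Prom1 (2.14), Nes (2.12) and Sox2 (1.18) in yNSCs, and Nes (1.93), Sox2 (1.44) and Prom1 (0.44) in NSCs. In yNSCs against NSCs Prom1 was called higher (1.70) and Fabp7 lower (-0.31). Markers of other cells were also measured in the neuron cultures, and the 6 of microglia and macrophages lay at 7.24 to 7.27 in yNSCs and 6.27 to 6.32 in NSCs, against 11.25 to 11.78 in neurons. The 4 markers of mural cells and fibroblasts lay at 12.29 to 12.71 in yNSCs and 9.30 to 9.82 in NSCs, against 7.10 to 7.48 in neurons. This spread came from Acta2 and Tagln, while Col1a1 and Pdgfrb averaged 3.94 to 4.39 in the groups. The 4 astrocyte markers lay at 12.30 to 12.49 in yNSCs, 11.06 to 11.66 in NSCs and 12.26 to 12.32 in neurons. Within this list Gfap, the astrocyte intermediate filament gene, measured 9.15, 9.15 and 9.38 in yNSCs, against 3.65, 3.84 and 3.92 in NSCs and 8.10, 7.47 and 7.28 in neurons. Like 7 of the 8 subunits, 3 of these 4 markers were called higher in yNSCs than in NSCs, Gfap (5.42), Aqp4 (4.83) and Slc1a3 (1.15), and Aldh1l1 was not (-0.04). The 4 markers of oligodendrocyte precursors lay at 10.83 to 10.93 in yNSCs, 11.56 to 11.81 in NSCs and 10.41 to 10.56 in neurons, and the 3 endothelial markers between 5.66 and 6.16 in all. Most of the precursor sum in the stem cells came from Olig2, which averaged 10.78 in yNSCs, 11.51 in NSCs and 8.81 in neurons. In yNSCs against neurons Olig2 was called higher (1.97), and the other 3 were called lower, Pdgfra (-5.57), Sox10 (-1.61) and Cspg4 (-0.63). Pdgfra averaged 4.04 in yNSCs, 7.15 in NSCs and 9.61 in neurons. The difference between 3′ and 5′ control probe sets of Actb, a sign of RNA quality, was 0.19 to 0.31 in yNSCs and 0.56 to 0.70 in NSCs, against 0.03 to 0.21 in neurons. NSC array A stood apart from its replicates for single genes, such as the astrocyte water channel gene Aqp4, which measured 3.40 on it and 5.62 and 5.90 on NSC arrays B and C. In these bulk samples fewer cells of a type and less RNA per cell cannot be told apart, and the part of the other cell types or of RNA quality in the values below was not tested.

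In yNSCs, 7 of the 8 subunits were higher than in neurons, and the same number were higher than in NSCs, while none was lower in either comparison, also at an unadjusted p under 0.05 in limma. Of all genes, 34.6% were called higher in yNSCs than in neurons and 21.3% higher than in NSCs. In NSCs 3 subunits (Jun, Fos and Junb) were higher than in neurons and 1 (Fosl2) was lower, beside 33.3% and 34.1% of all genes. The Junb call was lost in 6 of 17 alternative analyses, and the Fosl2 difference was 0.04 and not called on its further probe set. Fosl1 had the widest difference, 25.8-fold higher in yNSCs than in NSCs and 23.1-fold higher than in neurons. A gene was called higher or lower when its adjusted p in limma (Benjamini-Hochberg over 18193 genes) was under 0.05. Values are log2 expression, so 1 unit is a doubling, and differences are given as the first group minus the second, with the moderated standard error (SE).

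So many genes differed between these cells that each count has to be read beside the share of all genes. For yNSCs over neurons, 34.6% of all genes had a call of higher and 27.9% of lower, against 7 and 0 subunits, and the 3 arrays of a group did not overlap those of the other for 67.0% of genes, against all 8 subunits. In NSCs, 33.3% of genes were called higher and 34.1% lower than in neurons, against 3 and 1 of the 8 subunits, and the arrays did not overlap for 69.1% of genes, against 5 subunits. In yNSCs, 21.3% of genes were called higher and 18.0% lower than in NSCs, against 7 and 0 subunits, and the arrays did not overlap for 51.6%, against 6 subunits. The median difference over the 8 subunits was 1.79 in yNSCs against neurons, 0.02 in NSCs against neurons and 1.06 in yNSCs against NSCs. Over all genes these medians were -0.01, -0.07 and 0.07 in the same order of comparisons. The comparisons with neurons share the neuron arrays, and the 2 comparisons with yNSCs share the yNSC arrays, so they are not independent of each other.

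**Figure D1:**
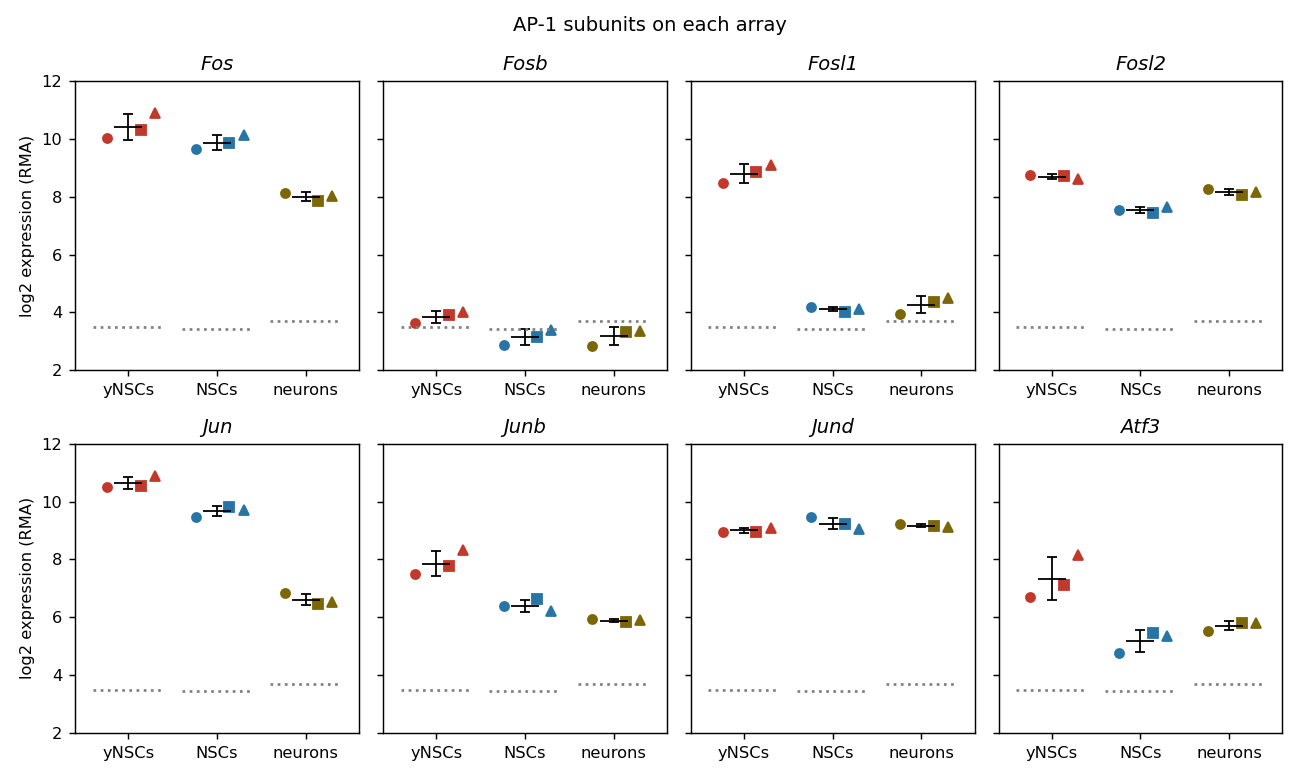
Log2 expression of the 8 AP-1 subunits on each array, 1 panel per gene (probe set with the highest mean), with yNSCs, NSCs and neurons from left to right. Circles, squares and triangles are replicates A, B and C, bars are the mean ± SD of 3 arrays, and dotted lines are the mean lower quartile of the arrays of the group, taken as the background level. Fosl1 lay above 8 on the yNSC arrays and below 5 on all others, Jun and Fos stepped down over the 3 groups, and Jund stayed between 8.96 and 9.45.

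Fosl1, which encodes the Fos-related protein FRA1, a subunit known from migrating and mesenchymal cells, measured 8.46, 8.85 and 9.09 on the yNSC arrays. It measured 4.18, 4.03 and 4.12 on the NSC arrays and 3.95, 4.37 and 4.49 on the neuron arrays. Every yNSC array was thus far above every other array, and the NSC and neuron arrays overlapped near the low end of the array's range. The difference was 4.69 ± 0.171 (SE) in yNSCs against NSCs, with an adjusted p of 1.80e-09 in limma, and 4.53 ± 0.171 in yNSCs against neurons, with an adjusted p of 3.63e-10. NSCs differed from neurons by -0.16, with a 95% interval from -0.53 to 0.21 and an adjusted p of 0.424. A further Fosl1 probe set gave 6.41, 6.90 and 7.57 in yNSCs, against 3.36, 3.53 and 3.51 in NSCs and 3.21, 3.38 and 3.09 in neurons. Both probe sets of Fosl1 therefore separated yNSCs from the other cells, by 3.49 over NSCs for the further one. Its NSC mean (3.47) lay just above the background level (3.43) and its neuron mean (3.23) below it (3.71), so against neurons only a bound can be given, at least 9.54-fold higher in yNSCs when set against that level.

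Fosl2, which encodes FRA2, the other Fos-related protein without the transactivation domain of Fos, had a different order. Its values were 8.75, 8.73 and 8.61 in yNSCs, 7.55, 7.43 and 7.65 in NSCs, and 8.27, 8.05 and 8.16 in neurons. None of the 3 groups overlapped another, and native NSCs, not neurons, were lowest. Fosl2 was higher in yNSCs than in NSCs by 1.15 ± 0.105 (2.22-fold, adjusted p = 3.22e-06 in limma) and higher than in neurons by 0.54 ± 0.105 (adjusted p = 0.000689). It was lower in NSCs than in neurons, with a difference of -0.62 ± 0.105 and an adjusted p of 0.000222. Its further probe set gave 5.53, 5.80 and 6.35 in yNSCs, 5.14, 5.26 and 5.14 in NSCs, and 5.30, 5.27 and 4.84 in neurons. There yNSCs were again higher than NSCs (0.71, adjusted p = 0.0103) and neurons (0.76, adjusted p = 0.00451), but NSCs and neurons differed by only 0.04 (adjusted p = 0.855), so the lower level in NSCs rests on 1 of the 2 probe sets. After quantile normalization the difference of yNSCs over neurons was 0.21 and no longer called (adjusted p = 0.0705).

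Fos, the founding immediate early gene of the family, was higher in both kinds of stem cells than in neurons. It measured 10.04, 10.31 and 10.91 in yNSCs and 9.64, 9.84 and 10.14 in NSCs, against 8.14, 7.84 and 8.01 in neurons. All 6 stem cell arrays lay above the neuron arrays, while NSC array C lay above yNSC array A. Fos was higher than in neurons by 2.42 ± 0.201 in yNSCs (5.36-fold, adjusted p = 4.09e-07 in limma) and by 1.88 ± 0.201 in NSCs (3.67-fold, adjusted p = 3.98e-06). The step of 0.55 in yNSCs against NSCs, with a 95% interval from 0.11 to 0.99, passed the test only narrowly, at an adjusted p of 0.0485, and was no longer called in 9 of 17 alternative analyses. Without yNSC array C it was 0.30, with an adjusted p of 0.206.

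Fosb, which is induced by activity in neurons, had a signal close to background. It measured 3.62, 3.91 and 4.01 in yNSCs, against 2.86, 3.16 and 3.40 in NSCs and 2.83, 3.33 and 3.37 in neurons. The means of NSCs and neurons lay below the background level, which is the mean lower quartile of the arrays of a group (3.49 in yNSCs, 3.43 in NSCs and 3.71 in neurons), and the yNSC mean of 3.85 lay just above it. Fosb was called higher in yNSCs, by 0.71 ± 0.176 over NSCs (adjusted p = 0.00686 in limma) and by 0.67 ± 0.176 over neurons (adjusted p = 0.00538). Set against the background levels, these differences are bounds of at least 1.33-fold over NSCs and at least 1.10-fold over neurons, and the difference of -0.04 between NSCs and neurons (adjusted p = 0.866) says little about either.

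Jun, the most potent transactivator of the Jun family, had the largest difference of the 8 in NSCs against neurons. It measured 10.49, 10.53 and 10.88 in yNSCs and 9.47, 9.80 and 9.71 in NSCs, against 6.84, 6.47 and 6.52 in neurons. The 3 groups did not overlap and fell in the order yNSCs, NSCs, neurons. Jun was higher than in neurons by 4.02 ± 0.144 in yNSCs (16.3-fold, adjusted p = 2.41e-10 in limma) and by 3.05 ± 0.144 in NSCs (8.28-fold, adjusted p = 2.39e-09). Against NSCs, Jun was higher in yNSCs by 0.97 ± 0.144 (1.96-fold, adjusted p = 0.000179). Its further probe set gave 9.94, 9.87 and 9.94 in yNSCs and 9.14, 9.52 and 9.67 in NSCs, against 7.67, 7.16 and 7.34 in neurons. The order of the groups was the same there and the steps were smaller, 2.53 in yNSCs against neurons, 2.05 in NSCs against neurons and 0.47 in yNSCs against NSCs (adjusted p = 0.0311).

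Junb, a weaker transactivator that can restrain Jun, measured 7.48, 7.77 and 8.32 in yNSCs, against 6.38, 6.62 and 6.21 in NSCs and 5.94, 5.82 and 5.89 in neurons. All yNSC arrays lay above the NSC arrays, which lay closely above the neuron arrays. Junb was higher in yNSCs by 1.45 ± 0.184 over NSCs (2.74-fold, adjusted p = 5.00e-05 in limma) and by 1.97 ± 0.184 over neurons (3.93-fold, adjusted p = 1.22e-06). For NSCs over neurons the difference was 0.52 ± 0.184, with an adjusted p of 0.0250. This last call was lost when neuron array B or C or NSC array A or B was left out, with adjusted p-values from 0.050 to 0.102, and after quantile normalization (0.37, adjusted p = 0.117) or centring on the median of named genes (0.38, adjusted p = 0.0804).

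Jund, the subunit that most cells express steadily and that is not an immediate early gene, was the only member with no call in any comparison. It measured 8.96, 8.96 and 9.09 in yNSCs, 9.45, 9.23 and 9.04 in NSCs, and 9.24, 9.14 and 9.13 in neurons. All yNSC arrays lay below the neuron arrays, by a small margin, and the NSC arrays overlapped both. The difference was -0.17 in yNSCs against neurons (95% interval -0.42 to 0.09, adjusted p = 0.233 in limma) and 0.07 in NSCs against neurons (95% interval -0.18 to 0.32). In yNSCs against NSCs it was -0.24, with a 95% interval from -0.49 to 0.02 and an adjusted p of 0.135. Jund was called lower in yNSCs than in NSCs without NSC array C (-0.34, adjusted p = 0.0453), and lower than in neurons after quantile normalization (-0.45, adjusted p = 0.00641) or after centring each array on the median of its named genes (-0.35, adjusted p = 0.0297). The further probe set measured 3.68, 4.05 and 4.03 in yNSCs, 3.80, 3.84 and 3.87 in NSCs, and 4.07, 3.88 and 4.20 in neurons, with no call either.

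Atf3, an ATF family member induced by stress that pairs with Jun proteins and often represses, was the most variable of the 8. It measured 6.71, 7.11 and 8.15 in yNSCs, against 4.75, 5.44 and 5.36 in NSCs and 5.52, 5.79 and 5.81 in neurons. The yNSC arrays were highest and the NSC arrays lowest, with no overlap between groups. Atf3 was higher in yNSCs by 2.14 ± 0.301 over NSCs (4.41-fold, adjusted p = 0.000117 in limma) and by 1.62 ± 0.301 over neurons (3.07-fold, adjusted p = 0.000474). Between NSCs and neurons the difference was -0.52, with a 95% interval from -1.18 to 0.13 and an adjusted p of 0.143. Atf3 was called lower in NSCs than in neurons, at the same difference, when yNSC array C (adjusted p = 0.0296) or all yNSC arrays (adjusted p = 0.0334) were left out of the fit. Its residual SD of 0.49 across replicates lay at the 99.7th percentile of all genes. Without yNSC array C the difference of yNSCs over NSCs was 1.73 (adjusted p = 9.54e-05) and over neurons 1.20 (adjusted p = 0.000487).

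**Figure D2:**
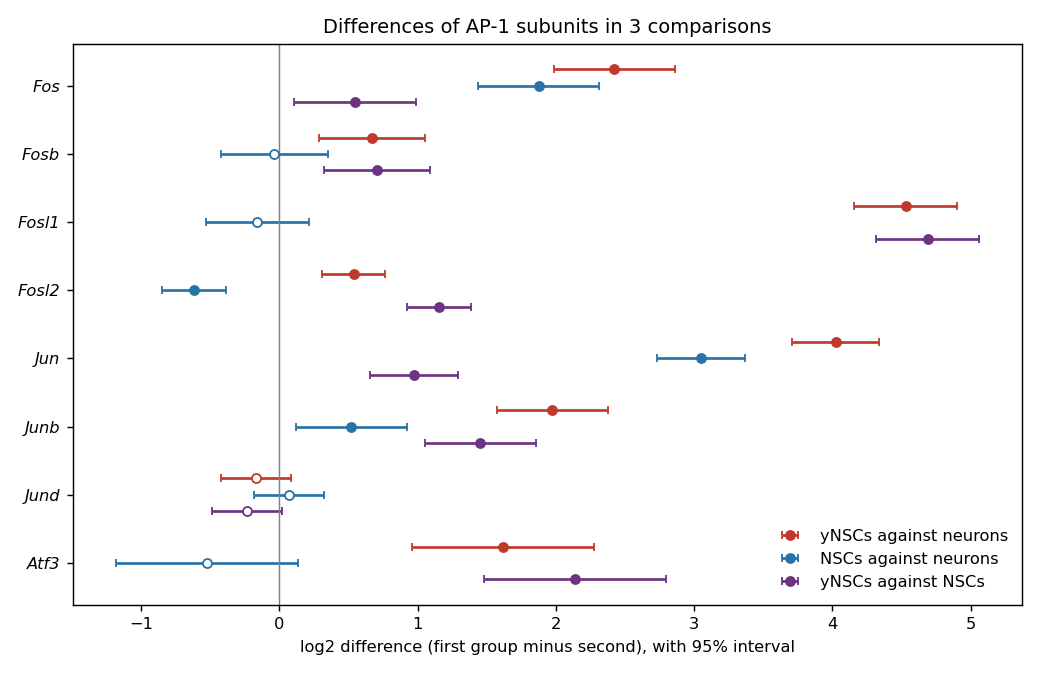
Log2 differences of the 8 AP-1 subunits, the first group minus the second, with 95% intervals from limma in yNSCs against neurons, NSCs against neurons and yNSCs against NSCs. Filled points were called at an adjusted p under 0.05 and open points were not, and the line marks no difference. Fosl1 stood at 4.53 and 4.69 in the comparisons of yNSCs and at -0.16 in NSCs against neurons, whereas Jun stood at 4.02 and 3.05 against neurons.

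Replicates of the inducible subunits spread more than those of most genes. The residual SD of Fos (0.31), Junb (0.28), Fosb (0.26) and Fosl1 (0.25) lay at the 94.7th, 90.9th, 88.6th and 86.3rd percentiles of all genes, that of Jun (0.20) at the 69.9th, and those of Jund (0.13) and Fosl2 (0.10) at the 33.5th and 16th. Among the yNSC arrays, array C was the highest for 7 of the 8 subunits, all but Fosl2, on the probe sets of highest mean, while it was the highest for 35.2% of all genes. On the further probe sets array C was highest for Fosl1 (7.57) and Fosl2 (6.35). There it tied with array A for Jun (9.94), and array B was highest for Jund (4.05). The part of array C in the results was examined by leaving it out. Then 7 subunits were still called higher in yNSCs than in neurons and 6 than in NSCs, Fos being the one not called.

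**Figure D3:**
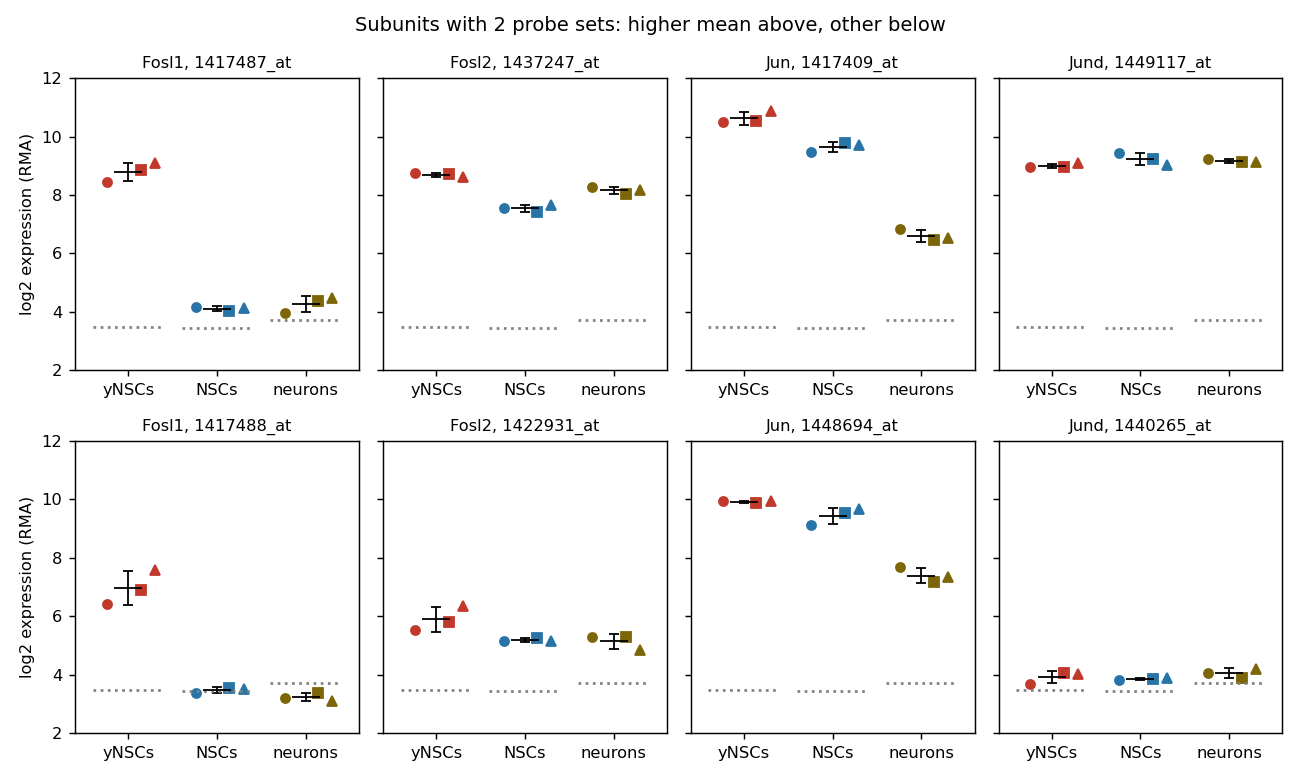
Log2 expression on each array for the 4 subunits with 2 probe sets, the probe set with the higher mean in the upper row and the other in the lower row, with yNSCs, NSCs and neurons from left to right. Circles, squares and triangles are replicates A, B and C, bars are the mean ± SD of 3 arrays, and dotted lines are the background level. Fosl1 and Jun had the same group order for yNSCs over the others on both probe sets, and the step between NSCs and neurons seen for Fosl2 in the upper row (-0.62) was 0.04 in the lower row.

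Promoter sequences are shown for the inducible subunits that were called higher in yNSCs than in both other groups, had a signal above background in each group and matched a searched motif. No promoter window was available for Fosl1, so its promoter was not searched. They are the 150 bases just upstream of the annotated gene in RefSeq (GRCm38.p6), written 5′ to 3′ on the strand of the gene, with motif matches in capitals. The windows are chr12:85473740-85473889 for Fos (plus strand), chr4:95052223-95052372 for Jun (minus strand), chr8:84978749-84978898 for Junb (minus strand) and chr1:191183334-191183483 for Atf3 (minus strand). The capitals mark TGACG, part of a cyclic AMP response element (CRE), or its reverse complement CGTCA, and in Jun the CRE-like TGACATCA.
Fos: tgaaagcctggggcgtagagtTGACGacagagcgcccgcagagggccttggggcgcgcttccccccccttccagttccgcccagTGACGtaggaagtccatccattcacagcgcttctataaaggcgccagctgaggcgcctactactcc
Jun: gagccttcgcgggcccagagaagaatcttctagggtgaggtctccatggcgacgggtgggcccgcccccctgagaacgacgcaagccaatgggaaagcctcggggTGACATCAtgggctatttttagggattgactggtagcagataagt
Junb: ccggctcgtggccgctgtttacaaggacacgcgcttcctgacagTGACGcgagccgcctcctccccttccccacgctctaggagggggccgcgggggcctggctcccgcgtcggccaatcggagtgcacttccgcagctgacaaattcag
Atf3: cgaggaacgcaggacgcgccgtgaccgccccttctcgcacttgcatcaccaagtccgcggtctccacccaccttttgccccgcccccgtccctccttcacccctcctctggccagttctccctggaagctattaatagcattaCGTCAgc

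Matches were searched on both strands in the 250 bases before the start, which were available for 7 of the 8 subunits, all but Fosl1. The Fos window held TGACG at -129 to -125 and at -66 to -62 from the start, Junb at -106 to -102, Fosb at -60 to -56, and Atf3 held CGTCA at -7 to -3. The start used for Fosb lay inside the annotated gene, which reaches to chr7:19310118 on the minus strand, so the Fosb match lay within that gene. Jun held TGACATCA at -45 to -38, a match to the CRE-like pattern TGACNTCA. Among 32851 mouse promoter windows of the same length, 17.8% held TGACG on either strand and 7.5% held TGACNTCA. None of the 7 windows held the TPA response element TGACTCA (4.5% of all windows), the full CRE TGACGTCA (1.5%), which contains TGACG and is a form of TGACNTCA, the TEAD-binding MCAT motif GGAATG (12.6%) or a CArG box, the binding sequence of SRF (1.5%). The Fosl2 and Jund windows held none of these 6 patterns. A match of letters is not evidence of binding, and the absence of a match speaks only of these windows.

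Genes with the most similar course over the 9 arrays were ranked by the root mean square (RMS) difference between profiles centred on their own means. For Fosl1 these were Anxa1 (0.179), which encodes the phospholipid-binding protein annexin A1, Ifi204 (0.288) and Hspa1a (0.293), an inducible heat shock protein. Anxa1 averaged 10.22 in yNSCs, against 5.53 in NSCs and 5.40 in neurons. For Jun they were Cdkn2b (0.201), an inhibitor of cyclin-dependent kinases, Ecrg4 (0.241) and Ero1a (0.244), and for Fos they were Mpp6 (0.177), the small GTPase Rras (0.202) and the integrin subunit Itgb1 (0.202). Junb was most like the macrophage growth factor Csf1 (0.180), the actin crosslinker Flnc (0.184) and C1qtnf12 (0.220). Atf3 was most like Socs1 (0.25), a feedback inhibitor of cytokine signalling, Ddit3 (0.255), which encodes the stress-induced bZIP protein CHOP, and Lbp (0.257). Fosl2 was most like Rnf141 (0.088), C630043F03Rik (0.098) and Trim13 (0.115), and Fosb, at its low signal, like Dnah11 (0.130), Nmu (0.139) and Ngfr (0.140).

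Counts of this and the following lists have to be read beside the shares of all genes called higher and lower. These shares were 34.6% and 27.9% in yNSCs against neurons and 33.3% and 34.1% in NSCs against neurons. For yNSCs against NSCs they were 21.3% and 18.0%. Among 17 measured bZIP partners and relatives of 18 listed, 6 had a higher and 3 a lower level in yNSCs than in NSCs, with a median difference of 0.21. These counts were 5 and 5 without NSC array A, and 4 and 3 without yNSC array C. Ddit3 measured 8.65, 9.03 and 9.40 in yNSCs, against 6.55, 7.0 and 7.34 in NSCs and 7.63, 7.79 and 7.80 in neurons. It was thus above both other groups on every yNSC array, by 2.06 over NSCs (adjusted p = 7.24e-06 in limma) and by 1.29 over neurons. Maff (0.87), a small Maf protein without a transactivation domain, and Cebpb (0.87) were also higher in yNSCs than in NSCs, though Maff was not called without NSC array A (adjusted p = 0.0855) or yNSC array C (adjusted p = 0.0886). Lower in yNSCs than in NSCs were Creb1 (-1.55), the factor that binds CRE sequences, Jdp2 (-1.52), a repressor that dimerizes with Jun, and Atf2 (-0.72), a partner of Jun on CRE-like sites. Atf4 was not called there (-0.34), although it was called lower without NSC array A (-0.62, adjusted p = 0.00382). Set against neurons, yNSCs had 8 of the list higher and 4 lower (median 0.03), led by Nfe2l2 (2.83), the oxidative stress factor NRF2, Maff (2.48) and Cebpb (1.93), with Atf2 at -0.91, Jdp2 at -0.57 and Atf4 at -0.56, while Mafk was not called (-0.17). Of the list, 7 were higher and 5 lower in NSCs than in neurons (median -0.12), with Nfe2l2 (2.30), Creb1 (2.05) and Maff (1.61) higher and Ddit3 (-0.78), Batf2 (-0.50) and Batf (-0.50) lower, and Atf4 not called (-0.22).

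The MAP kinases upstream of AP-1 divided in every comparison, as all genes did. Of 13 measured of 18 listed, yNSCs had 3 higher and 5 lower than NSCs (median -0.12). Map3k5 (1.26), the stress kinase ASK1, and the Jun kinases Mapk9 (1.14) and Mapk10 (0.57) were higher, while Map3k1 (-2.37), which activates Jun kinase signalling, Mapk7 (-1.50), which encodes ERK5, and Rps6ka5 (-1.19) were lower and Mapk14 (-0.32) was not called. In yNSCs against neurons 7 were higher and 5 lower (median 0.52), with Rps6ka3 (1.02), Mapk9 (1.02) and Map3k11 (0.67) at the top, Mapk10 (-1.46), Rps6ka5 (-1.30) and Mapk8 (-1.26) at the bottom, and Map2k1 (0.21) not called. NSCs had 6 higher and 4 lower than neurons (median 0.25), with Map3k1 (2.90), Mapk7 (2.02) and Rps6ka3 (1.56) against Mapk10 (-2.03), Map3k5 (-1.72) and Mapk8 (-1.43), and Map2k1 (0.25) not called, although it was called higher without NSC array A (0.38, adjusted p = 0.00501).

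SRF and its cofactors, which drive Fos and other immediate early genes, were measured for all 6 listed genes. None was higher and 4 were lower in yNSCs than in NSCs (median -0.64), and at an unadjusted p under 0.05 in limma these counts were 0 and 5. The lower genes included the actin-regulated coactivators Mrtfa (-1.03) and Mrtfb (-0.71) and the Ets partner Elk4 (-0.72). Srf itself averaged 6.71 in yNSCs, 7.03 in NSCs and 6.74 in neurons and was called in no comparison (-0.32, adjusted p = 0.0558 in yNSCs against NSCs). Against neurons, Elk3 (2.56), Elk4 (1.18) and Elk1 (0.45) were higher and Mrtfb (-0.98) and Mrtfa (-0.42) lower in yNSCs (median 0.21). Of these, Elk1 (adjusted p = 0.0640) and Mrtfa (adjusted p = 0.101) were not called without yNSC array C. In NSCs 4 were higher and none lower than in neurons (median 0.59), or 5 and 1 at an unadjusted p under 0.05, with Elk3 at 3.14, Elk4 at 1.90 and Mrtfa at 0.60, and Mrtfb (-0.26) was not called but was lower without NSC array A (adjusted p = 0.0429).

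MAP kinase phosphatases, which are themselves induced by MAP kinase signalling and end it, were measured for all 10 listed genes. In yNSCs against NSCs 2 were higher, Dusp5 (1.69) and Dusp4 (0.75), and 4 were lower, among them Dusp16 (-1.67), Dusp7 (-0.64) and Dusp6 (-0.61), with a median of -0.07 and Dusp8 (-0.14) not called. In yNSCs against neurons 5 were higher and 1 lower (median 0.91), with Dusp10 and Dusp4 at 2.14 each, Dusp6 at 2.02 and Dusp8 at -2.61, and Dusp2 (-0.30) not called, although it was called lower without yNSC array C (adjusted p = 0.0195). In NSCs against neurons 5 were higher and 2 lower (median 0.37), with Dusp16 (3.33), Dusp10 (2.68) and Dusp6 (2.63) against Dusp8 (-2.47) and Dusp2 (-0.42), and Dusp5 (0.28) not called. Without NSC array A the call of Dusp2 was lost (-0.45, adjusted p = 0.0514), which left 1 lower.

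Other immediate early genes were measured for all 15 listed, and in yNSCs against NSCs their median difference was 0.00. There 4 were higher, led by Zfp36 (1.11), which promotes decay of AU-rich mRNAs, Ier5 (1.05) and Arc (0.68), and 3 were lower, Btg2 (-1.64), Myc (-0.87) and Nr4a3 (-0.72). Arc was not called without yNSC array C (adjusted p = 0.0640), Nr4a3 was not called without NSC array A (adjusted p = 0.0739), and Nr4a1 (0.72) was not called with all arrays. In yNSCs against neurons 9 were higher and 4 lower (median 1.63), with Ier3 (5.15), Ier5 (2.95) and Egr1 (2.26) against Nr4a3 (-3.90), Egr3 (-1.64) and Nr4a2 (-0.72), and Nr4a1 (0.61) not called. Ier3 measured 9.74, 9.64 and 10.07 in yNSCs and 9.88, 10.14 and 10.26 in NSCs, against 4.64, 4.75 and 4.60 in neurons, so that it separated both kinds of stem cells from neurons. It was called lower in yNSCs than in NSCs only without NSC array A (-0.38, adjusted p = 0.0453) or yNSC array C (-0.40, adjusted p = 0.0392). Between NSCs and neurons 9 were higher and 5 lower (median 0.95), with Ier3 (5.43), Btg2 (3.84) and Egr1 (2.59) against Nr4a3 (-3.18), Egr3 (-1.23) and Npas4 (-1.10), and Nr4a1 (-0.12) not called.

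Textbook AP-1 target genes were called only higher in both comparisons of yNSCs with all arrays. Of 17 measured of 19 listed, 11 were higher and none lower in yNSCs than in NSCs (median 1.59), and again 11 were higher and none lower in yNSCs than in neurons (median 2.28). In NSCs against neurons 7 were higher and 4 lower (median 0.32). At an unadjusted p under 0.05 in limma, none was lower than in NSCs and 1, Mmp12, was lower than in neurons. Il6 and Mmp13, both called higher in yNSCs, lay below the background level in all 3 groups. Without NSC array A, 1 was called lower than in NSCs and 3 lower than in neurons, and without yNSC array C 1 was lower than in neurons.

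The matrix metalloproteinase Mmp3, which cleaves extracellular matrix, measured 8.58, 8.43 and 8.30 in yNSCs, against 3.90, 3.90 and 3.56 in NSCs and 3.34, 3.25 and 3.81 in neurons. Like Fosl1, it was high only on the yNSC arrays, with a difference of 4.65 over NSCs (adjusted p = 1.09e-09 in limma). Its neuron mean of 3.47 was below the background level, so it was at least 26.5-fold higher in yNSCs than in neurons (adjusted p = 8.35e-11 in limma). Timp1, which inhibits metalloproteinases, measured 11.67, 11.67 and 11.63 in yNSCs and 7.85, 7.61 and 7.77 in NSCs, against 3.32, 4.08 and 3.19 in neurons. Cd44, the hyaluronan receptor, measured 11.85, 11.77 and 11.77 in yNSCs and 9.41, 9.00 and 9.09 in NSCs, against 5.95, 5.78 and 5.40 in neurons. Both therefore had the group order of Jun, with steps of 3.91 (Timp1) and 2.63 (Cd44) in yNSCs over NSCs. Over neurons Cd44 was higher by 6.09, and Timp1, whose neuron mean of 3.53 was below the background level, was at least 247-fold higher.

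Hmox1, the haem-degrading enzyme induced by oxidative stress, measured 9.45, 9.79 and 10.17 in yNSCs, against 6.39, 6.65 and 6.65 in NSCs and 5.35, 5.68 and 5.59 in neurons, and was higher in yNSCs than in NSCs by 3.24. The chemokine Ccl2 measured 7.45, 8.07 and 9.37 in yNSCs, against 5.57, 5.22 and 5.12 in NSCs and 4.69, 4.65 and 4.71 in neurons. Both were highest on yNSC array C, like 7 of the 8 subunits. Ccnd1, the cell cycle gene encoding cyclin D1, was higher than in neurons in both kinds of stem cells, by 4.12 in yNSCs and 4.23 in NSCs, and was not called between them (-0.10, adjusted p = 0.484). The metallothionein gene Mt2 was not called in either comparison of yNSCs (0.36 over NSCs and -0.34 over neurons), and in NSCs it was lower than in neurons (-0.71), as were Mmp12 (-2.29) and Mmp9 (-0.34), while Ccl2 (0.62) was not called there, except without yNSC array C (adjusted p = 0.00718). Without NSC array A, Mmp12, Mt1 and Mt2 were called lower in yNSCs than in neurons (adjusted p = 0.0472, 0.0491 and 0.00478 in limma) and Mt1 lower than in NSCs (adjusted p = 0.0427), and without yNSC array C Mmp10 was called lower than in neurons (adjusted p = 0.00924) and Mmp13 no longer higher (adjusted p = 0.0669).

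**Figure D4:**
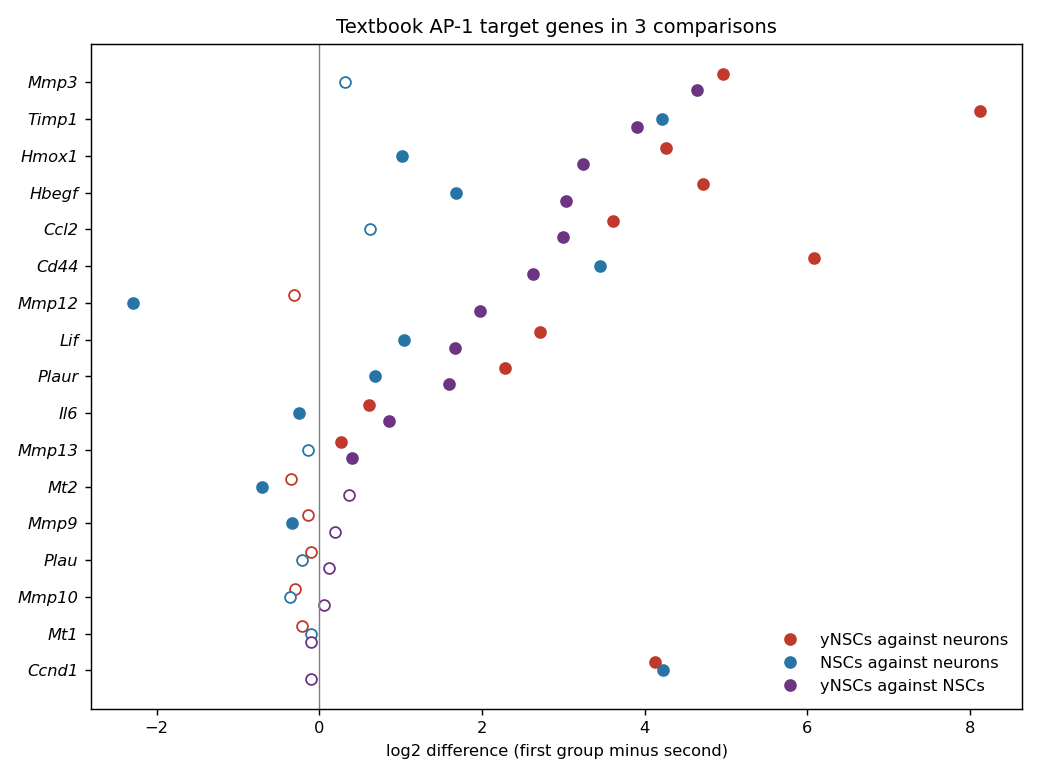
Log2 differences of the 17 measured textbook AP-1 target genes, the first group minus the second, in yNSCs against neurons, NSCs against neurons and yNSCs against NSCs. Filled points were called at an adjusted p under 0.05 in limma and open points were not, and genes are sorted by yNSCs against NSCs. Mmp3 (4.65) and Timp1 (3.91) were at the top of that comparison, and Ccnd1 (-0.10) was separated only from neurons. Mmp3 and Timp1 lay below the background level in neurons, and Il6 and Mmp13 in all groups, so the sizes of these differences are uncertain.

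Proteins that control the turnover of Jun and Fos, or act with them, were measured for 5 of 6 listed genes. Fbxw7, the ubiquitin ligase subunit that marks phosphorylated Jun for degradation, was lower in yNSCs than in NSCs (-0.65, adjusted p = 0.00119 in limma) and neurons (-2.83, adjusted p = 1.35e-09), and lower in NSCs than in neurons (-2.18). Its order over the groups was thus the reverse of that of Jun mRNA, but any link between them was not tested and the arrays measured no protein. Itch, another ligase for Jun, and Det1, part of a Jun ligase complex, were higher than in neurons in yNSCs (1.16 and 1.62) and in NSCs (1.36 and 1.39), and neither was called between yNSCs and NSCs (-0.19 and 0.23). Cops5, a Jun coactivator known as JAB1, was higher in yNSCs than in NSCs (0.74) and neurons (0.52), and Cop1 was higher than in neurons by 0.41 in yNSCs and 0.42 in NSCs. Cops5 was lower in NSCs than in neurons (-0.23, adjusted p = 0.0470), and this call was lost without NSC array A (adjusted p = 0.0945) or yNSC array C (adjusted p = 0.0571).

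**Figure D5:**
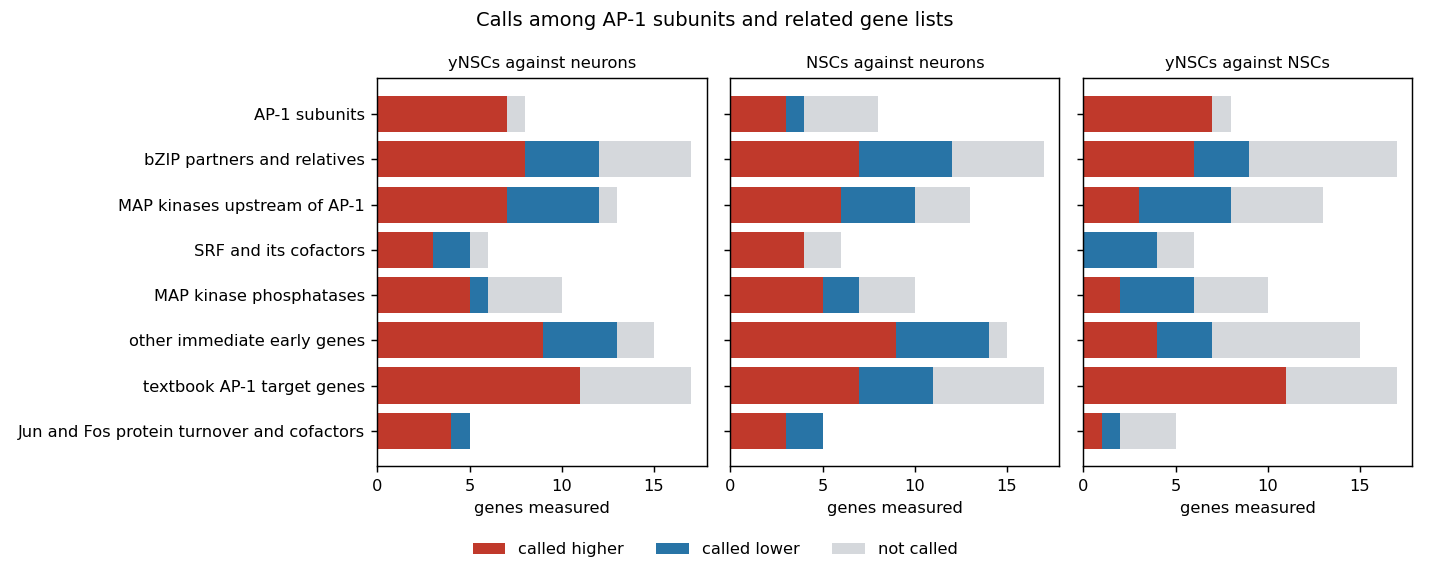
Number of genes called higher (red), called lower (blue) and not called (grey) among the AP-1 subunits and 7 related gene lists, with a panel each for yNSCs against neurons, NSCs against neurons and yNSCs against NSCs. The axis counts the measured genes of each list. In yNSCs against NSCs, 7 of 8 subunits and 11 of 17 target genes were higher and none lower, while 4 of 6 genes of SRF and its cofactors were lower and none higher. Of all genes, 21.3% were called higher and 18.0% lower there. The Fos call was lost in 9 of 17 alternative analyses, and the targets Il6 and Mmp13 lay below the background level in all groups.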

How the data were processed

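RNA from 9 mouse samples, 3 each of yNSCs, NSCs and neurons, was extracted with Trizol and hybridized to Affymetrix Mouse430_2 arrays. The authors deposited 1 log2 expression value per probe set, summarized by RMA according to the submitters' processing notes. Neither its version nor which arrays were normalized jointly was given in the sources used here. RMA can compress large ratios and values near background, so folds of low genes may be understated, which was not tested here. Its quantile step sets all arrays to a like distribution. Levels of different probe sets are not compared, except in the sums over marker lists, which add them and so depend on how strongly each probe set responds. The number of arrays limits the precision.

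Of 45101 probe sets, 64 controls were left out, 34945 had 1 symbol in the platform annotation, 932 had several and 9160 were not named here, and 34741 of the 34945 matched a RefSeq gene (GRCm38.p6). Each of 18193 genes was represented by its probe set of highest mean, and every probe set of the subunits was also tested. In R 4.3.3, limma 3.58.1 fitted 1 model of 3 group means to the 9 arrays (6 residual and 5.59 prior degrees of freedom), with two-sided p-values adjusted over all genes by Benjamini-Hochberg and calls at an adjusted p under 0.05. An exact permutation test of 3 against 3 arrays cannot go below p = 0.1. No statistical model for these arrays is given in the sources used here. A difference against a group whose mean lay below the background level (the mean lower quartile of its arrays) is given as a bound, computed against that level.

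The 8 subunits, the gene lists and the marker lists were chosen with earlier results of these data known. Named genes are all subunits, per list and comparison up to 3 called genes of largest difference in each direction and 1 not called, and the 3 genes nearest in profile to each subunit called in at least 2 comparisons. Other named genes (Mt1, Mmp10, Mmp13, Il6, Ccnd1 between yNSCs and NSCs, and those whose call changed without an array) were chosen after their values were seen. Results were recomputed with a block for the replicate letter, with the compared 6 arrays alone, without the 40% of genes that had the lowest mean, after a second quantile normalization, after subtracting array medians, with probe sets averaged per gene, with each further probe set, with a variance trend and robust prior, with a 2-fold minimum, and with each array left out. Centring each array on the median of its named genes was added after seeing the data. The script was tested on simulated data.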

Additional observations from a re-analysis of the deposited data

Results flagged for a closer look

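Fosl2 moved in opposite directions in the 2 kinds of stem cells relative to neurons, higher in yNSCs on all 3 arrays (0.54) and lower in NSCs on all 3 arrays (-0.62). The difference between these effects is that of yNSCs over NSCs, 1.15 ± 0.105 (SE), with an adjusted p of 3.22e-06 in limma. A call of this difference was a condition of the flag, so it adds no separate evidence. On the further Fosl2 probe set yNSCs were likewise higher than NSCs (0.71), and NSCs were not called against neurons (0.04). After quantile normalization the difference of yNSCs over neurons was 0.21 and not called (adjusted p = 0.0705 in limma). Neither difference from neurons reached 2-fold (1.45-fold in yNSCs and 1.53-fold in NSCs).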

How the results depend on the processing

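Over 417 recomputed values, 381 kept their direction and their side of the threshold, 16 lost and 5 gained a call, and 15 changed sign, none of which had a call both before and after. Fosl1, Junb, Atf3, Fosb and Fosl2 in yNSCs against NSCs, Fosl1, Jun, Fos, Junb, Atf3 and Fosb in yNSCs against neurons, Jun in all 3 comparisons and Fos in NSCs against neurons kept their calls under every alternative that included them, except the 2-fold minimum, which Fosb in both comparisons and Jun in yNSCs against NSCs did not reach. Leaving out the 40% of genes of lowest mean removed Fosb, which left 6 subunits higher in both comparisons of yNSCs. With that minimum, 5 subunits were higher in yNSCs than in neurons, 4 were higher in yNSCs than in NSCs and 0 were lower in NSCs than in neurons, and the genes called fell to 5324 of 11375 in yNSCs against neurons, 5670 of 12258 in NSCs against neurons and 2187 of 7153 in yNSCs against NSCs. The subunits lower in yNSCs than in neurons were 1 (Jund) after quantile normalization and 1 after centring on the median of named genes, against 0. In NSCs against neurons 2 were lower with only the 6 arrays compared (Fosl2 and Atf3), and 1 to 2 without 1 array. In yNSCs against NSCs 0 to 1 were lower without 1 array. The cause was not tested, except that a 2-fold minimum can only remove calls.

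Sign changes concerned NSCs against neurons, apart from 1 of Jund in yNSCs against NSCs. Fosb turned to 0.24 (quantile normalization) and 0.0133 (array median) and ranged from -0.21 to 0.10 without 1 array. Fosl1 turned to 0.20 (quantile normalization), 0.04 (mean of probe sets) and 0.24 (further probe set), and Fosl2 to 0.0433 (further probe set). Jund turned to -0.23 (quantile normalization), -0.0717 (mean of probe sets), -0.0667 (median of named genes) and -0.21 (further probe set), and ranged from -0.035 to 0.17 without 1 array. In yNSCs against NSCs Jund turned to 0.0833 (further probe set). Of the 16 lost calls, 9 were of Fos in yNSCs against NSCs, 6 of Junb in NSCs against neurons and 1 of Fosl2 in yNSCs against neurons.

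Centring on the median of named genes moved the median of all genes to -0.19 in yNSCs against neurons and to -0.21 in NSCs against neurons, and genes called higher were then 41.6% of those called in yNSCs against neurons, compared with 55.3%. Over all genes, deviations from the group means were little correlated between arrays of the same letter (correlations from -0.105 to 0.1). Such correlations cannot show whether samples of the same letter were paired. With the letter as a replicate block, 11215, 12093 and 6919 genes were called in yNSCs against neurons, NSCs against neurons and yNSCs against NSCs, and the counts of subunits stayed at 7 higher and 0 lower, 3 and 1, and 7 and 0. Signals near background limit Fosb, and 3 arrays in a group limit the precision of all differences.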
